A study of Mus musculus with 6 samples.

Results

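Chemokines and their receptors were examined in thoracic aorta of mice that lack Ndst1 in smooth muscle and of wild type mice. The members are all probes whose gene symbol in the platform annotation starts with Ccl, Cxcl, Ccr or Cxcr and a number, or is Cx3cl1, Xcl1, Cx3cr1 or Xcr1. These were 79 probes for 54 genes, 36 ligands and 18 receptors, of 45281 probes on the array. The 6 arrays hold 1 sample each from male C57Bl/6 mice aged 3 to 4 months. The 3 samples of the WT group have the genotype SM22αCre-Ndstwt/wt and the 3 of the NDST group SM22αCre+Ndst-/-, so the groups differ in the Cre transgene as well as in the deletion, and these cannot be told apart. Cre under the SM22α promoter acts in smooth muscle and, early in development, also in heart muscle, and which other cells of the vessel wall lost the gene was not measured here. Whether each sample is a mouse of its own is not labelled, and p-values therefore rest on the spread among arrays, which may be technical.

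Chemokines are small secreted proteins that guide leukocytes along concentration gradients, and each binds one or several G protein-coupled receptors on the migrating cell. Families are named for the spacing of their first cysteines (CC, CXC, CX3C and XC), with L for ligand and R for receptor. Many chemokines bind to heparan sulfate on endothelium and matrix, which holds them in place on the vessel wall. Ndst1 encodes an enzyme that removes acetyl groups from heparan sulfate and puts sulfate in their place.

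Each probe was read as the brightness of its beads, and values below are log2 intensities after background correction and quantile normalization, which can be compared between arrays for 1 probe but not between probes. Testing was limited to probes detected (detection p-value under 0.05) on 3 or more of the 6 arrays, counted over both genotypes; these are called kept. Differences are NDST minus WT with limma's standard error, n = 3 arrays per genotype, and a probe passed the threshold at an adjusted p under 0.05 over all 17954 kept probes. Over all kept probes 4.32% passed higher and 3.12% lower in NDST. That split depended on the scaling: among the probes past the threshold, the share that was higher in NDST was 58.1% as processed here, 82.9% when arrays were scaled to a common median, 88.9% with no normalization between arrays and 40.8% in the authors' processed values. With no normalization the median of all kept probes stood 0.13 higher in NDST. The WT arrays detected 18131, 17644 and 17549 probes and the NDST arrays 18434, 18619 and 18063. The smooth muscle markers Acta2, Myh11, Tagln, Smtn and the others of 8 listed were detected in both groups, while 7 of 7 kept heart muscle markers rose in NDST (median 3.80). The deleted gene was not analysed here, which leaves the genotype labels without that check.

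Most ligands that were detected in the aorta were seen in both genotypes, and most receptors were not detected. Of 36 ligand genes 21 had a kept probe, and of 18 receptor genes 3 had one: Cxcr4, the receptor of Cxcl12, Cx3cr1, the fractalkine receptor of monocytes and macrophages, and Cxcr5, the B cell receptor of Cxcl13. By probe, 34 of 79 were kept, 26 were detected on all 6 arrays and 38 on none. The 45 probes not kept stood between 4.20 and 5.22 on the log2 scale, where the dimmest detected probe of an array lay between 4.90 and 4.99. Such probes give no level and are not shown to lack the transcript.

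Not detected on any array were the neutrophil attractants Cxcl1, Cxcl2, Cxcl3 and Cxcl15, as well as Ccl3, which acts on Ccr1. The same held for Ccl17 and Ccl22, ligands of the Ccr4 of helper T cells, for Ccl20, which attracts Ccr6-bearing cells, and for Ccl1, Ccl26, Ccl28, Cxcl11 and Xcl1. Ccl2, the main monocyte attractant, was detected on 1 WT and 1 NDST array, and Cxcl17 on 1 NDST array. Among the receptors, Ccr1, Ccr2, Ccr3, Ccr4, Ccr7, Ccr8, Ccr9, Ccr10, Ccr1l1, Cxcr3, Cxcr6 and Xcr1 were detected on no array, Ccr6 on 2 WT arrays, and Cxcr1 and Cxcr2 on 1 WT array each.

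A group of 6 kept probes were detected on every NDST array but on only 1 WT array. They are 1 probe each of the T cell and inflammatory ligands Cxcl10 and Ccl4, of Cxcl13, which draws B cells into follicles, of the eosinophil attractant Ccl24 and of the monocyte attractant Ccl12, and the probe of Cx3cr1. Since 3 NDST arrays were enough to keep a probe, these could pass the detection filter through the NDST group alone. No kept member probe showed the opposite pattern of all 3 WT arrays and fewer NDST arrays. Over the whole array, 18063 to 18619 probes were detected per NDST array and 17549 to 18131 per WT array. The share of all kept probes with either pattern was not counted, so the imbalance is not shown to be particular to chemokines. The 2 kept probes nearest the limit, detected on 3 arrays, are a Ccl25 probe (1 WT and 2 NDST) and a Cxcr5 probe (2 WT and 1 NDST), and the nearest probes left out were those of Ccl2 and Ccr6, detected on 2.

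**Figure D1:**
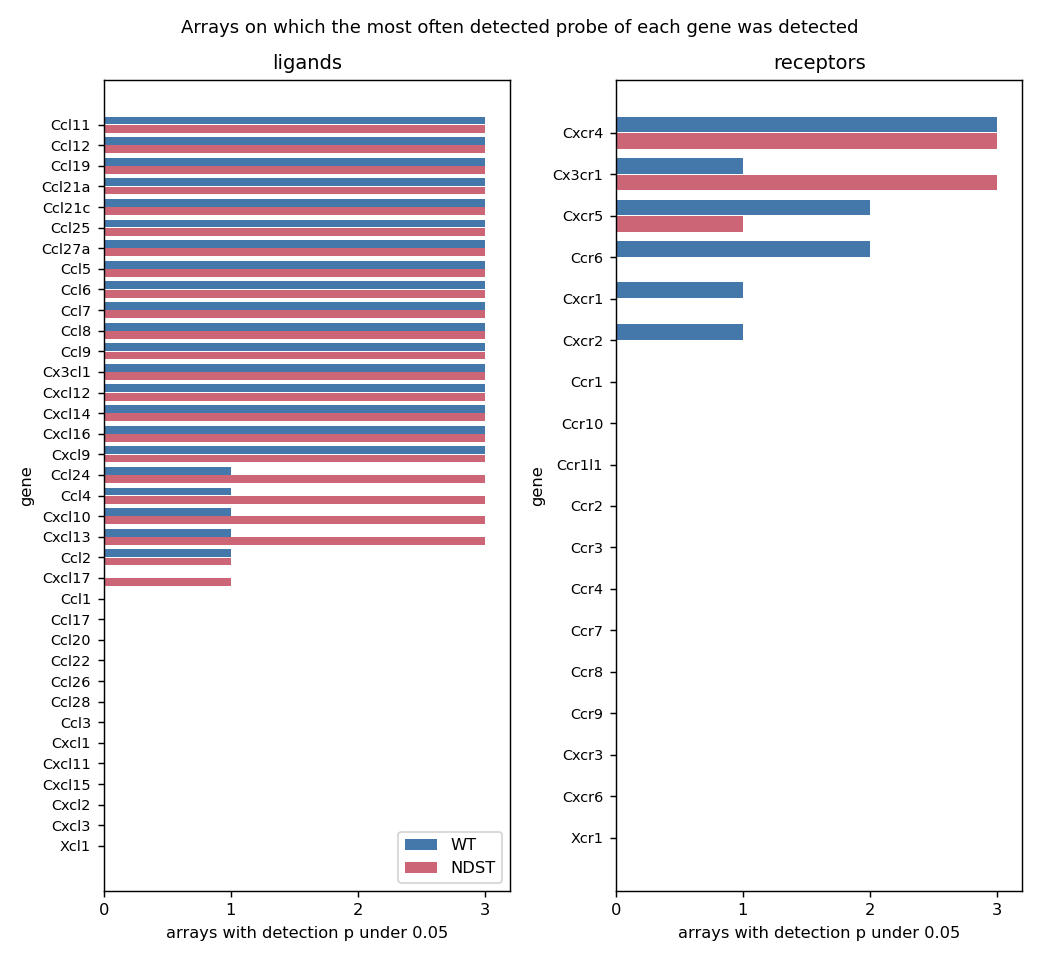
Number of arrays of each genotype (horizontal axis, 0 to 3) on which the most often detected probe of each gene had a detection p under 0.05, for 36 ligands (left) and 18 receptors (right). In the ligand panel bars reach 3 in both genotypes from Ccl11 down to Cxcl9, and of the receptors only Cxcr4 reaches 3 in both.

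Of the 34 kept probes 5 were higher (14.7%, against 4.32% of all kept probes) and 2 lower (5.88%, against 3.12%) in NDST. The higher ones were probes of Cxcl9, Ccl5, Cxcl10, Ccl12 and Ccl21a, and the lower ones of Ccl8 and Cxcl14. All 7 are ligands and none of the 3 kept receptor probes passed. For 17 probes (50%) the NDST arrays all lay on one side of the WT arrays, 11 higher and 6 lower, against 32.4% of all kept probes (16.1% higher and 16.3% lower). The median difference of the 34 was 0.09, against -0.01 over all kept probes. As the filter could be met by NDST alone, these counts describe the kept probes and not all members. In tissue RNA a change in the number of cells that make a transcript and a change in RNA per cell cannot be told apart.

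**Figure D2:**
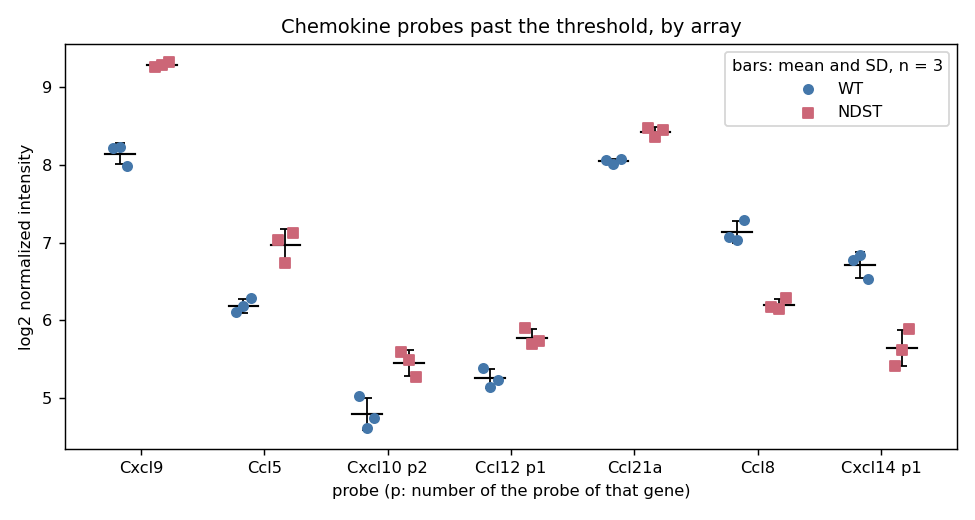
Log2 normalized intensity (vertical axis) on each of 3 WT (circles) and 3 NDST arrays (squares) for the 7 probes past the threshold, with mean and SD; p and a number mark the probe where a gene has several. Cxcl9 sits at 7.99 to 8.23 in WT and at 9.26 to 9.32 in NDST, and Ccl8 at 7.03 to 7.30 in WT and at 6.14 to 6.29 in NDST.

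Of the ligands of Cxcr3, the receptor of activated T and NK cells, Cxcl9 rose under every alternative run, and Cxcl10 passed less firmly. Cxcl9, which interferon gamma induces in macrophages and endothelium, had values of 8.23, 8.23 and 7.99 in WT and of 9.26, 9.28 and 9.32 in NDST. Every NDST array lay above every WT array, and the gap between the groups was wider than the spread within either. Cxcl9 was thus 2.20-fold higher (1.14 ± 0.09, adjusted p = 0.000931), the largest rise among the kept members, and it passed under all 18 alternatives run (adjusted p = 3.19e-11 to 0.0124). On the arrays before any correction its probe (ILMN_1215862) read 387, 399 and 355 in WT and 739, 770 and 785 in NDST.

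Cxcl10, a second interferon-induced ligand of Cxcr3, was dim. Its second probe (ILMN_3142803) stood at 5.02, 4.61 and 4.74 in WT, where 1 array detected it, and at 5.59, 5.49 and 5.26 in NDST, where all 3 did. The groups did not overlap, and the difference was 0.66 ± 0.13 (adjusted p = 0.0341). This probe met the detection filter through NDST alone, so it was tested because it was high there, and it missed the threshold with no filter (adjusted p = 0.0613) and with detection on at least 1 array (0.0560). Its first probe and both probes of Cxcl11, the remaining ligand of this receptor, were detected on no array. The call of Cxcl10 was less stable than that of Cxcl9: it passed under 9 of 17 alternatives (adjusted p = 0.0103 to 0.104). Of the 6 settings that leave out 1 array it passed only without WT replicate 1, and was furthest from the threshold without NDST replicate 2 (0.104). The probe of Cxcr3 itself was detected on no array.

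Cxcl9 and Cxcl10 lie on chromosome 5 with only Art3 between them in RefSeq's order of protein-coding genes, and the 250 bases before each start are shown since both proteins bind Cxcr3. The sequences are from RefSeq (GRCm38.p6), with matches to 3 motifs in capitals: GAS, the interferon gamma activated site TTCNNNGAA, the core of the interferon response element (ISRE), which is GAAA, any 2 bases and GAAA, and the NF-kB motif, each sought on both strands. The Cxcl9 window lies at chr5:92328080-92328329 and that of Cxcl10 at chr5:92348890-92349139, both on the minus strand.
Cxcl9: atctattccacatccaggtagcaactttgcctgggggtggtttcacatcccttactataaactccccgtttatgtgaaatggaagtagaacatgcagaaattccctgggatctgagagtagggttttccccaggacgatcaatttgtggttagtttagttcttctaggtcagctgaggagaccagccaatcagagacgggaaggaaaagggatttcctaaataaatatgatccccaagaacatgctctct
Cxcl10: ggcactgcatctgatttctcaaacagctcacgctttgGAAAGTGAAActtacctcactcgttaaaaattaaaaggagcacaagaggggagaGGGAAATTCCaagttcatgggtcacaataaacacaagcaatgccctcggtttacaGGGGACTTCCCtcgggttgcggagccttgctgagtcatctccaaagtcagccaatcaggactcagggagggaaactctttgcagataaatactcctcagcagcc
Cxcl10 has an ISRE core whose first base is 213 bases before the start and NF-kB matches at 159, 104 and 103 bases, the last 2 overlapping each other. The Cxcl9 window holds none of the 3 motifs, which says only that these letters are not in it. Over 32841 windows of RefSeq start sites GAS was found in 7.02%, the ISRE core in 2.98% and the NF-kB motif in 7.25%. Windows were found for 40 of the 54 genes, and 4, 3 and 10 of these genes had the respective motifs in a window. The undetected Cxcl1, Cxcl2 and Cxcl3 were among the 10 with an NF-kB match. Of the 16 genes with a window and a kept probe 1, 3 and 2 had the motifs. These counts are by gene, and a gene with several windows counted if any held the motif, while the shares above are by window.

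Ccl5, an attractant of T cells, monocytes and eosinophils that is stored in T cells and platelets, also rose. Its probe (ILMN_1231814) read 6.11, 6.18 and 6.28 in WT and 7.04, 6.74 and 7.13 in NDST. The groups were apart, although NDST replicate 2 lay below the other NDST arrays. The rise was 1.72-fold (0.78 ± 0.12, adjusted p = 0.0141). It lost the threshold narrowly without WT replicate 1 (adjusted p = 0.0531), WT replicate 2 (0.0511) or NDST replicate 1 (0.0549), and passed under the other 15 alternatives (0.000143 at the lowest).

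Ccl4, an attractant of T cells and monocytes, differed by 0.66 ± 0.18 (adjusted p = 0.0760). Its first probe stood at 4.54, 5.03 and 4.47 in WT and at 5.49, 5.46 and 5.06 in NDST, with 1 and 3 arrays detecting it. The values of WT replicate 2 and NDST replicate 3 lay close together, and the other probe was detected on no array. Under 7 of 16 alternatives it passed the threshold (adjusted p = 0.0287 to 0.189). Ccl3, which lies beside Ccl4 on chromosome 11, was not detected.

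Ccl12 and Ccl8, which lie next to each other in the cluster of monocyte chemoattractants on chromosome 11, moved in opposite directions. Ccl12, a mouse ligand of Ccr2, stood with its first probe (ILMN_2771766) at 5.38, 5.14 and 5.23 in WT and at 5.90, 5.70 and 5.73 in NDST. The NDST arrays lay above all WT arrays, with a difference of 0.52 ± 0.10 (adjusted p = 0.0264). A second Ccl12 probe, at 4.57, 5.36 and 4.88 in WT and 5.22, 5.34 and 5.13 in NDST, overlapped between groups and did not pass (0.29 ± 0.19, adjusted p = 0.388). The first probe passed under 10 of 18 alternatives (adjusted p = 0.00693 to 0.0791), and of the settings without 1 array only without WT replicate 1, with 0.0791 without NDST replicate 1.

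Ccl8, which in the mouse acts on Ccr8 and is made by macrophages, was lower in NDST. Values were 7.07, 7.03 and 7.30 in WT and 6.17, 6.14 and 6.29 in NDST (probe ILMN_1238886). All 3 NDST arrays lay well below the lowest WT array. The fold was 1.91 (-0.93 ± 0.10, adjusted p = 0.00341), and it passed under all 18 alternatives run (adjusted p = 7.13e-06 to 0.0234). The other detected genes of the cluster did not pass: Ccl7, a monocyte attractant, differed by 0.24 ± 0.11 with its first probe and by -0.14 ± 0.19 with the other. The first read 5.55, 5.25 and 5.60 in WT and 5.65, 5.71 and 5.75 in NDST, without overlap. Ccl11 (eotaxin), which attracts eosinophils, stood at 8.56, 8.58 and 8.49 in WT and 8.39, 8.52 and 8.68 in NDST with its brighter probe (-0.01 ± 0.09), and its other probe differed by -0.13 ± 0.11. Ccl2 and Ccl1 at the ends of the run were not kept.

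The upstream windows of Ccl12 (chr11:82101595-82101844) and Ccl8 (chr11:82114935-82115184), both on the plus strand, are shown since the genes are neighbours and moved in opposite directions.
Ccl12: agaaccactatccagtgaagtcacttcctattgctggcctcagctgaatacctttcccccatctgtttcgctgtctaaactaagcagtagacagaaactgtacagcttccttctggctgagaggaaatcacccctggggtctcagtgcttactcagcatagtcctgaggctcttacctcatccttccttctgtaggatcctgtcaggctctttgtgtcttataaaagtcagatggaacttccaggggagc
Ccl8: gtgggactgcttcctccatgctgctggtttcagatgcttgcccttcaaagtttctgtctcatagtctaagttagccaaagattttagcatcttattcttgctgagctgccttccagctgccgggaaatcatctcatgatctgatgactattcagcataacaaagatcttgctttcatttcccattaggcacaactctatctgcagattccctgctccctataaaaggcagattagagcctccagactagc
Neither window holds a match to the 3 motifs, so no letters are in capitals. In a global alignment 57.5% of the positions were identical, the second highest of 780 pairs of member windows, whose median was 48.8%.

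Cxcl14, made by epithelium, fibroblasts and fat, had the largest fall. Its first probe (ILMN_2659426) read 6.78, 6.84 and 6.53 in WT and 5.42, 5.62 and 5.89 in NDST. The groups were apart by more than the range within NDST. The difference was -1.07 ± 0.14, or 2.11-fold lower (adjusted p = 0.00887), and it passed under all 18 alternatives (adjusted p = 2.14e-05 to 0.0485). The second probe read 7.03, 7.36 and 7.27 in WT and 6.67, 6.72 and 6.98 in NDST, lower on every NDST array but not past the threshold (-0.43 ± 0.12, adjusted p = 0.0799). It passed under 4 of 18 alternatives (0.0120 to 0.241), and whether the probes differ from each other was not tested.

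The window before the Cxcl14 start (chr13:56296552-56296801, minus strand) is shown for the gene with the largest fall.
Cxcl14: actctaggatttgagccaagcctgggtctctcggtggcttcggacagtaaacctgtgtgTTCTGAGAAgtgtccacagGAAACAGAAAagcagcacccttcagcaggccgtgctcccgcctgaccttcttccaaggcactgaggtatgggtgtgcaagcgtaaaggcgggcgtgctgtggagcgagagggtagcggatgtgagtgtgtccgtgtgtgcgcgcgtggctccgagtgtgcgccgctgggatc
It holds a GAS match with its first base 191 bases before the start and an ISRE core at 172. Among the other member windows GAS was found in those of Ccl17, Ccr6 and Ccr1l1, none of which had a kept probe, and the ISRE core in those of Cxcl10 and Ccl19.

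Ligands of Ccr7, which guide dendritic cells and naive T cells to lymph nodes and are made by lymphatic endothelium and lymphoid stroma, gave mixed values. The probe of Ccl21a (ILMN_1213286) stood at 8.06, 8.02 and 8.08 in WT and at 8.47, 8.36 and 8.46 in NDST. Both groups were tight and did not overlap, and the difference was 0.38 ± 0.07 (adjusted p = 0.0289). Of 2 probes named for Ccl21c, the first read 7.83, 7.84 and 7.71 in WT and 7.95, 7.84 and 8.29 in NDST, a narrow gap carried by NDST replicate 3 (0.23 ± 0.12, adjusted p = 0.292). The other differed by -0.08 ± 0.08. The Ccl21 genes are near-identical copies, so these probes may read each other's transcripts, and which copy rose is uncertain. Ccl21a lost the threshold whichever array was left out (adjusted p = 0.0657 to 0.0897) and passed under 9 of 18 alternatives (0.000836 at the lowest). Ccl19, the other ligand of Ccr7, stood at 7.08, 7.44 and 7.31 in WT and 7.46, 7.29 and 7.45 in NDST, which overlap (0.12 ± 0.11, adjusted p = 0.537). The receptor was detected on no array.

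Cxcl12, the ligand of Cxcr4 that retains stem cells and lymphocytes in tissue, is made by fibroblasts and smooth muscle and had 3 of its 5 probes kept. The first probe was lower in NDST without overlap, at 10.64, 10.57 and 10.72 in WT and 10.39, 10.40 and 10.37 in NDST, but missed the threshold (-0.25 ± 0.07, adjusted p = 0.0831). The 2 others overlapped between groups (0.07 ± 0.08 and 0.11 ± 0.14). The first passed under 4 of 18 alternatives (adjusted p = 0.000354 to 0.191), so the probes of Cxcl12 give no single answer. The 3 kept probes are annotated to different transcripts of the gene, and whether those transcripts differ in their change was not tested.

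Ccl27a, which attracts Ccr10-bearing T cells to skin, was lower without overlap with both of its probes. They differed by -0.39 ± 0.09 (adjusted p = 0.0524) and -0.24 ± 0.09 (adjusted p = 0.171). The first stood at 7.58, 7.49 and 7.56 in WT and 7.06, 7.32 and 7.07 in NDST, and passed under 6 of 18 alternatives. The second stood at 9.61, 9.46 and 9.55 in WT and 9.33, 9.43 and 9.15 in NDST, and passed under 3. Cxcl13 was higher without overlap, at 4.87, 5.10 and 4.75 in WT and 5.31, 5.23 and 5.69 in NDST (0.51 ± 0.15, adjusted p = 0.0839), and passed under 2 of 17. Ccl27a belongs to a gene family with near-identical copies, and its probes, annotated to different transcripts, may read more than 1 of them.

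Other kept ligands of monocytes and eosinophils did not pass. Ccl9 and Ccl6, which act on Ccr1, were higher without overlap, but by only 0.15 ± 0.09 and 0.07 ± 0.07 (adjusted p = 0.329 and 0.553). Ccl9 read 8.72, 8.74 and 8.59 in WT and 8.95, 8.81 and 8.74 in NDST. For Ccl6 the WT arrays all read 5.94 and the NDST arrays 6.01, 6.07 and 5.96, so that a gap without overlap can be far too small for the test. Ccl24, a ligand of the eosinophil receptor Ccr3, differed by 0.21 ± 0.15. The 3 probes of Ccl25, which directs T cells to gut and thymus, differed by 0.13 ± 0.19, 0.08 ± 0.13 and 0.17 ± 0.22.

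The membrane-bound chemokines were detected in both groups. Cx3cl1 (fractalkine), anchored on endothelium and smooth muscle, varied most within WT, at 5.19, 6.13 and 5.90 against 5.47, 5.83 and 5.73 in NDST (-0.06 ± 0.24). Its 95% interval of -0.62 to 0.50 leaves room for sizeable change either way. Cxcl16, which also takes up oxidized lipid as a scavenger receptor, differed by -0.10 ± 0.13 with its kept probe. Over the 27 kept probes that did not pass, the 95% interval reached to either side of the difference by between 0.17 and 0.87 with a median of 0.31. With 3 arrays per genotype, a probe that missed the threshold is not shown to be equal in both.

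The 3 kept receptors differed by less than the spread between arrays. Cxcr4 stood at 6.09, 5.73 and 6.07 in WT and 5.78, 5.77 and 6.09 in NDST (-0.08 ± 0.14, adjusted p = 0.755). Cx3cr1 was detected on 1 WT and 3 NDST arrays, with values of 4.86, 5.25 and 4.97 against 5.07, 5.56 and 5.09 (0.21 ± 0.16, adjusted p = 0.456). The kept Cxcr5 probe ranged widely within both groups, at 5.11, 4.47 and 5.32 against 4.54, 5.76 and 4.55 (-0.02 ± 0.37), and its other probes were not kept. Among receptors of the ligands that passed, Cxcr3, Ccr1, Ccr2, Ccr3, Ccr7 and Ccr8 were undetected on every array, and no receptor was assigned to Cxcl14.

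**Figure D3:**
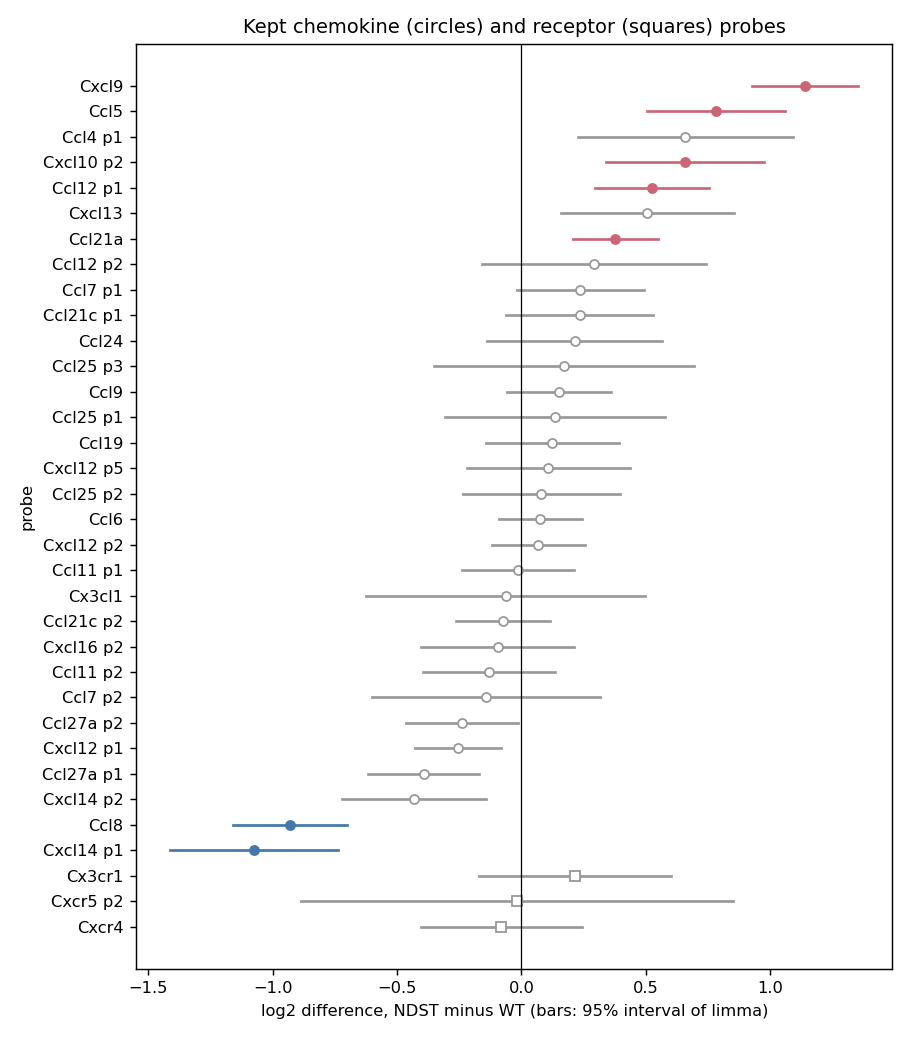
Log2 difference NDST minus WT with its 95% interval (horizontal axis) for the 34 kept probes, ligands as circles and receptors as squares; filled symbols passed the threshold. Cxcl9 lies at 1.14 and the first probe of Cxcl14 at -1.07, and most open symbols have intervals that cross 0.

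Several genes gave probe-dependent answers. Of the 24 genes with a kept probe 12 had more than 1 probe on the array and 8 had more than 1 kept. In none did 2 probes both pass: the second kept probes of Ccl12 and Cxcl14 missed the threshold in the same direction, and Cxcl10 had only 1 kept probe. Cxcl9, Ccl5, Ccl8 and Ccl21a were each read by a single probe.

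Genes of the pathway outside the family mostly did not pass. By gene, each represented by its kept probe of highest mean, 4.61% of 10077 genes passed higher and 2.74% lower, with a median of 0.00. Of 5 kept atypical and related receptors Ackr1 rose (0.62 ± 0.10, adjusted p = 0.0181). The Ackr receptors among them bind chemokines without the usual signal. Ackr1 carries chemokines across venular endothelium. The scavenging receptors Ackr2 (0.44 ± 0.19) and Ackr4 (0.04 ± 0.10, its other probe 0.70), and Ccrl2 (0.34 ± 0.14) and Pitpnm3 (0.35 ± 0.16), did not pass, and the list had a median of 0.35. The ligands Pf4 and Ppbp of platelets differed by -0.03 ± 0.12 and -0.31 ± 0.13, Mif by 0.04 ± 0.08 and Cklf by 0.34 ± 0.20, with 0 of 4 past the threshold in either direction.

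None of 19 kept genes of signalling below the receptors passed in either direction (median 0.06), the nearest being the G protein subunit Gnai2 (0.27 ± 0.07, adjusted p = 0.0656). Of 4 kept proteases that cut chemokines Mmp2, which trims Ccl7 and Cxcl12, rose (0.51 ± 0.08, adjusted p = 0.0141). Dpp4, which removes the first residues of many chemokines, stood at 0.34 ± 0.10 (adjusted p = 0.0782). Of 14 kept inducers and regulators 1 rose and 1 fell (median 0.22). Irf1, an interferon-induced activator of Cxcl9 and Ccl5, was higher (0.56 ± 0.09, adjusted p = 0.0168, its other probes 0.25 to 0.46). Zfp36, which destabilises cytokine transcripts, was lower (-0.38 ± 0.08, adjusted p = 0.0333). At least 1 gene passed higher under 15 of 18 alternatives for the atypical receptors, 13 for the proteases and 14 for the inducers, and lower under 7 for the inducers. The cytokines Tnf, Il6, Ifng, Il4 and Il17a were not kept, and Il1b differed by 0.30 ± 0.18.

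Markers of the cells that make or follow chemokines were set beside these values, as the number past the threshold and the range over arrays of the summed linear level of the kept genes. None of 12 kept macrophage and monocyte markers passed in either direction (median 0.03, sums of 3011 to 3156 in WT and 3037 to 3239 in NDST). The brightest, C1qb and C1qc, differed by 0.08 ± 0.12 and 0.02 ± 0.09. The 12 ranged from Cd163 (-0.33 ± 0.11) to Lyve1 (0.37 ± 0.11), which is also listed for lymphatic endothelium. Of 3 kept dendritic cell markers none passed (median 0.25), with Siglech at 0.25 ± 0.21 and Clec10a at -0.07 ± 0.27, and Itgax and Flt3 were undetected. Of 8 kept T cell markers Cd247 alone rose (0.49 ± 0.10), from detection on no WT array to at least 1.06-fold higher (sums of 2052 to 2142 and 2135 to 2220, median 0.19), with Cd3d at 0.19 ± 0.09, while Cd8a, Cd5 and Cd28 were undetected. The brightest of that list, Cd8b1 and Thy1, differed by 0.02 ± 0.07 and 0.07 ± 0.10. With mean log2 values of 10.25 and 9.39 they made up most of the T cell sums. Those sums therefore say little of the dim Cd3d, Cd3e and Cd3g (5.38, 5.20 and 5.71). Of 3 kept NK and cytotoxic markers Prf1, the pore-forming protein perforin, rose (0.57 ± 0.10, adjusted p = 0.0216, sums of 295 to 334 and 402 to 442). Nkg7 stood at 0.19 ± 0.17 and Klrd1 at -0.09 ± 0.19, and Ncr1, Klrk1 and Gzmb were undetected. Prf1, with a mean log2 value of 8.06 against 5.79 and 5.35 for Nkg7 and Klrd1, made up most of the NK and cytotoxic sums. Cd247 met the detection filter through NDST alone, and a T cell marker passed higher under only 4 of 18 alternatives, an NK and cytotoxic marker under 13. Of 7 kept endothelial markers Vwf was higher (0.45 ± 0.09, median 0.22), with Pecam1 at 0.18 ± 0.08, under 9 of 18 alternatives with any such call. Of 4 kept platelet markers Treml1 was lower (-0.51 ± 0.10, median -0.34, sums of 414 to 432 and 311 to 334), with a call under 8 of 18. The part of these cells in the differences of Cxcl9, Cxcl10 and Ccl5 was not tested.

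Neutrophil markers were higher in the same arrays, 5 of 7 kept (median 1.26, sums of 583 to 605 in WT and 1462 to 1470 in NDST). S100a8 rose by 1.40 ± 0.08 and S100a9 by 1.26 ± 0.09. With a mean log2 value of 9.03, S100a8 made up most of the neutrophil sums. Camp and Ngp, detected on no WT array, were at least 2.70-fold and 1.97-fold higher, and Ltf rose by 1.54 ± 0.20. Camp and Ngp met the detection filter through NDST alone, so the count, median and sums include genes tested because they were high there. The kept markers Elane (-0.07 ± 0.08) and Retnlg (0.64 ± 0.16, adjusted p = 0.0570) did not pass. Of the other markers, Mpo and Mmp8 were undetected. Among the members, the ligands Cxcl1, Cxcl2 and Cxcl3 of the neutrophil receptor Cxcr2 were detected in neither genotype. No member probe was named for Cxcl5, so its level is not known here. Ppbp, a ligand of the same receptor named outside the member rule, was detected on all 6 arrays (-0.31 ± 0.13, adjusted p = 0.196).

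Lymphatic endothelial markers, listed as cells that make Ccl21, had 1 of 5 higher (median 0.37, sums of 679 to 734 and 795 to 921): Reln rose (0.61 ± 0.11), Pdpn stood at 0.18 ± 0.08 and Lyve1 at 0.37 ± 0.11, and Prox1 was not kept. Of lymph node stroma and high endothelium only Fcer2a was kept (-0.08 ± 0.27), with Glycam1, Madcam1 and Chst4 undetected. Adventitial fibroblast markers had 5 of 9 higher (median 0.40, sums of 13207 to 13553 and 16764 to 17411), Pi16 by 0.67 ± 0.08, Col14a1 by 0.41 ± 0.09, Pdgfra by 0.41 ± 0.07, Lum by 0.34 ± 0.07 and Dcn, the brightest, by 0.32 ± 0.07 (its other probes -0.12 to 0.28), in the arrays in which Cxcl14 fell. Dcn (mean log2 value 13.37) made up most of the fibroblast sums, and Pdpn (8.81) most of the lymphatic sums. Of 2 kept airway and alveolar epithelial markers Cyp2f2 fell with it (-0.68 ± 0.13, adjusted p = 0.0289, a lower call under 11 of 18 alternatives), while Scgb1a1 rose (2.38 ± 0.07). Sftpc, Sftpa1 and Foxj1 were undetected. None of 7 kept adipocyte markers passed (median -0.09), with the brightest, Cidea and Ucp1, at 0.02 ± 0.08 and -0.25 ± 0.08. The part of these cells in the differences of Ccl21a and Cxcl14 was not tested.

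**Figure D4:**
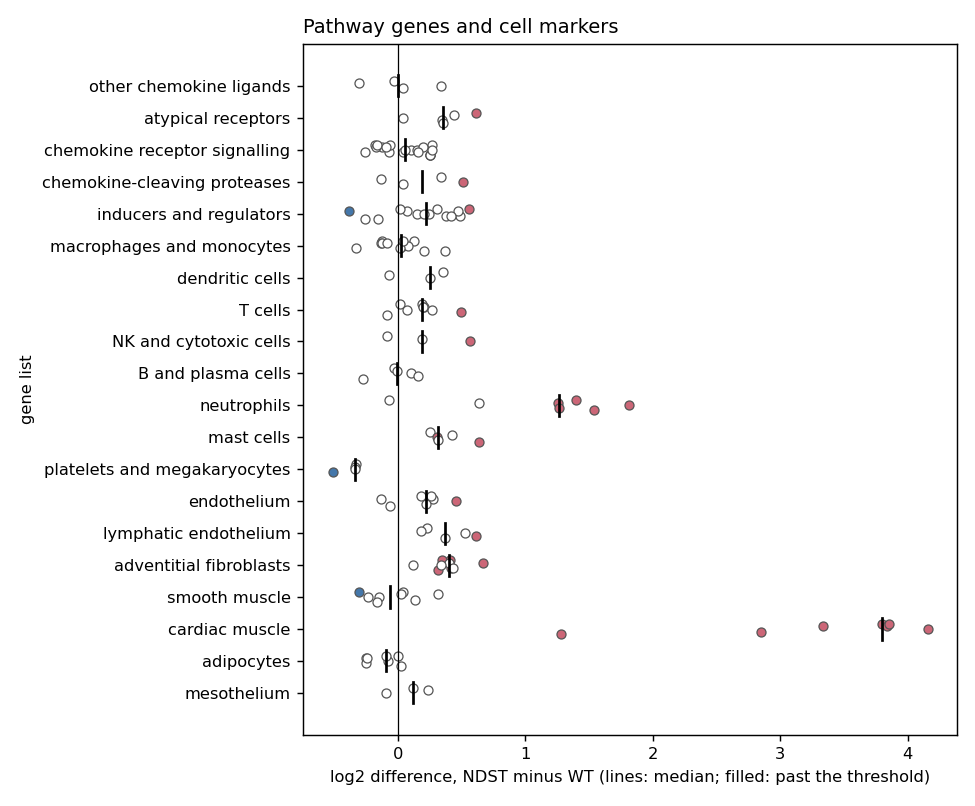
Log2 difference NDST minus WT (horizontal axis) of the kept genes of 20 pathway and marker lists with at least 3 kept genes; red points passed higher, blue lower, and lines mark medians. Heart muscle markers lie at 1.28 to 4.16, neutrophil markers have a median of 1.26, and macrophage markers centre on 0.03.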

How the data were processed

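Total RNA of mouse thoracic aorta was measured on 6 Illumina bead arrays. Per the labels' protocols, Trizol extracts were column-purified and amplified to biotinylated cRNA. The deposited non-normalized table holds, per the file headers, an intensity per probe and array on a linear scale, with a deposited detection p-value beside it. The submitters' processing notes name GenomeStudio. How the authors scaled their processed intensities is not stated in the labels or headers. Their medians were 135.8 to 135.9 in WT and 134.2 to 134.4 in NDST, so that table served only as an alternative.

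Intensities were processed with neqc of limma 3.58.1 in R 4.3.3 (normexp background from the detection p-values, offset 16, quantile normalization, log2). The offset understates differences of dim probes. The NDST and WT arrays were compared by limma's moderated linear model (lmFit, eBayes), and two-sided p-values were adjusted by Benjamini and Hochberg's method over 17954 kept of 45281 probes. At 3 arrays per genotype, their number limits the precision. The steps were tested on simulated arrays. Probes were named from the platform annotation (34885 with 1 gene, 18 with several, 10378 with none listed). Members, the 23 gene lists (220 genes) and the tests were chosen with earlier results of these data known. Named were all members past the threshold or without overlap, the brightest ligands and receptors, the partners of called ligands and, in each list, up to 6 called genes. For cell types the 2 brightest were planned, but not all of these are named, and some other list genes were named by choice. Promoter windows came from RefSeq and were cut at the start site. The 18 alternatives changed the background, offset, normalization, filter, moderation, weights, block, input table or left out 1 array. BeadChips are not named in the headers, so no slide block was run.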

Additional observations from a re-analysis of the deposited data

How the results depend on the processing

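Cxcl9, Ccl8 and the first probe of Cxcl14 kept their direction and passed under all 18 alternatives, and none of the 7 members past the threshold reversed under any. Counts of calls were less stable. The number of member probes higher in NDST, 5, became 8 with no normalization between arrays, 3 with no detection filter or with detection on at least 1 array, 2 with the replicate number as a block, and 1 to 3 without single arrays (1 without NDST replicate 1). The number lower, 2, became 6 with no background correction, with an intensity trend or in the authors' processed values, and 5 with an offset of 50. With no filter 79 member probes were kept in place of 34. Over all probes 1336 passed, against 3145 with no background correction, 2190 with the offset of 50, 2711 with no normalization, 722 with no filter, 687 with detection on at least 1 array, 3086 with the trend, 3535 in the authors' values, 364 with the replicate block and 404 to 532 without single arrays. The replicate numbers were not shown to pair the arrays (correlations of deviations -0.01, 0.01 and 0.02 for the same number). Under the replicate block Ccl12 (adjusted p = 0.0524), Ccl21a (0.0846) and Cxcl10 (0.0570) missed the threshold. A block for the BeadChip was planned and not run, as the headers name none. The causes of these changes were not tested.

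Reversals occurred only among probes that passed under no setting. With median scaling they were the Ccl11 probes (0.090 and 0.0086), a Ccl21c probe (0.056), Cx3cl1 (0.066), Cxcl16 (0.046), Cxcr4 (0.057) and Cxcr5 (0.043). With no normalization they were the same probes in the same order (0.134, 0.053, 0.100, 0.109, 0.090, 0.101 and 0.087) and a Ccl7 probe (0.016). Cxcr5 also turned with the offset of 50 (0.0083) and with array weights (0.036). Without single arrays the differences ranged from -0.090 to 0.057 for a Ccl11 probe, from -0.073 to 0.292, from -0.043 to 0.202 and from -0.096 to 0.330 for the Ccl25 probes, from -0.308 to 0.026 for the Ccl7 probe, from -0.339 to 0.131 for Cx3cl1, from -0.197 to 0.046 for Cxcl16 and from -0.413 to 0.184 for Cxcr5.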

Other observations

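Marker lists not described above are given as values (log2 difference NDST minus WT, n = 3 arrays per genotype). All 7 kept heart muscle markers were higher, with the smallest p for Actc1 (3.84 ± 0.08), Myl4 (3.33 ± 0.07), Myl7 (4.16 ± 0.10), Csrp3 (3.85 ± 0.11), Myh6 (3.80 ± 0.12) and Nppa (2.85 ± 0.09), and their summed level went from 1248 to 1299 in WT to 14405 to 15105 in NDST. Of 5 kept mast cell markers Kit (0.63 ± 0.08, its other probe -0.03) and Tpsb2 (0.31 ± 0.07) were higher. Of 8 kept smooth muscle markers Lmod1 was lower (-0.31 ± 0.07, a lower call under 7 of 18 alternatives), with Acta2 at 0.02 ± 0.07 and Myh11 at 0.04 ± 0.07. None of 5 kept B and plasma cell markers (median -0.01) or 3 mesothelial markers (0.12) passed, nor did the 1 kept thymocyte marker, Cd1d1 (0.11 ± 0.11). Smooth muscle also makes Cxcl12 and Cx3cl1; the part of these cells in the chemokine results was not tested.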
